A study of Mus musculus with 4 samples.

Results

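Cohesin is the ring-shaped complex that holds sister chromatids together, and its genes were described here in mouse germinal vesicle oocytes of 2 chromatin classes. The members were the genes Rec8, Rad21, Smc1a, Smc1b, Smc3, Stag1, Stag2, Stag3, Wapl and Nipbl, taken by symbol from the deposited transcript table. Of these 10 genes, 9 had rows there, with 34 of the table's 48574 RefSeq models and 9 of its 17945 genes. Rec8 is not analysed here. Germinal vesicle oocytes were collected from unprimed female mice on postnatal day 20, kept in meiotic prophase with milrinone at 1 μg/ml, and denuded of cumulus cells. The strain is not given in the sources used here. Each live oocyte was classed from bright-field images by a deep learning pipeline as NSN (non-surrounded nucleolus) or SN (surrounded nucleolus, with a ring of condensed chromatin around the nucleolus). There were 15 oocytes and 2 libraries per class, and mRNA was isolated with oligo(dT), so that a change in poly(A) tail length cannot be told apart from a change in level. Nothing in the labels places the replicates in separate animals, so p-values reflect library-to-library variation alone, and part of that variation may be technical.

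A cohesin ring is built from a pair of SMC ATPases, a kleisin that bridges their heads, and a STAG subunit bound to the kleisin. Mitotic cells use SMC1A, SMC3, RAD21 and STAG1 or STAG2, whereas germ cells also carry the meiosis-specific SMC1B, STAG3, RAD21L and REC8. NIPBL with MAU2 loads the ring and drives loop extrusion, and WAPL opens it and releases it from chromatin. In mouse oocytes the cohesion between sister chromatids is laid down before birth and must last, with little renewal, until the meiotic divisions.

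No cohesin gene passed the test for a difference between SN and NSN oocytes. The edgeR quasi-likelihood test on estimated counts called 0 of the 9 members at an adjusted p of 0.05, and 0.0% of all 13426 genes tested (an unadjusted p under 0.05 was reached by 1 member and by 7.48% of genes). The 9 members had log2 fold changes (SN over NSN) from -0.29 to 0.72 with a median of 0.06, against a median of -0.01 over all tested genes. DESeq2 gave an adjusted p to 672 genes, none of them a member, and called 6.99% of those. In TPM both SN libraries were below both NSN libraries for 4 of 9 members (Rad21, Smc3, Stag1 and Nipbl) and above them for 0, against 37.0% and 4.98% of all tested genes. For CPM scaled by TMM (edgeR's correction for composition) they were below for 2 members (Rad21 and Stag1) and above for 2 (Smc1b and Stag3), against 20.7% and 18.3%. On the per-length TPM scale (transcript abundance corrected for length and depth) the order of mean levels was Wapl, Smc3, Rad21, Smc1a, Nipbl, Smc1b, Stag2, Stag1 and Stag3. The ranges over the 4 libraries overlapped between Wapl and Smc3, Rad21 and Smc1a, Nipbl and Smc1b, and Stag2 and Stag1, and did not overlap at the other neighbours in that order. Summed over the 9 members, the level was 148 and 173 TPM in NSN replicates 1 and 2, and 141 and 148 TPM in SN replicates 1 and 2.

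**Figure D1:**
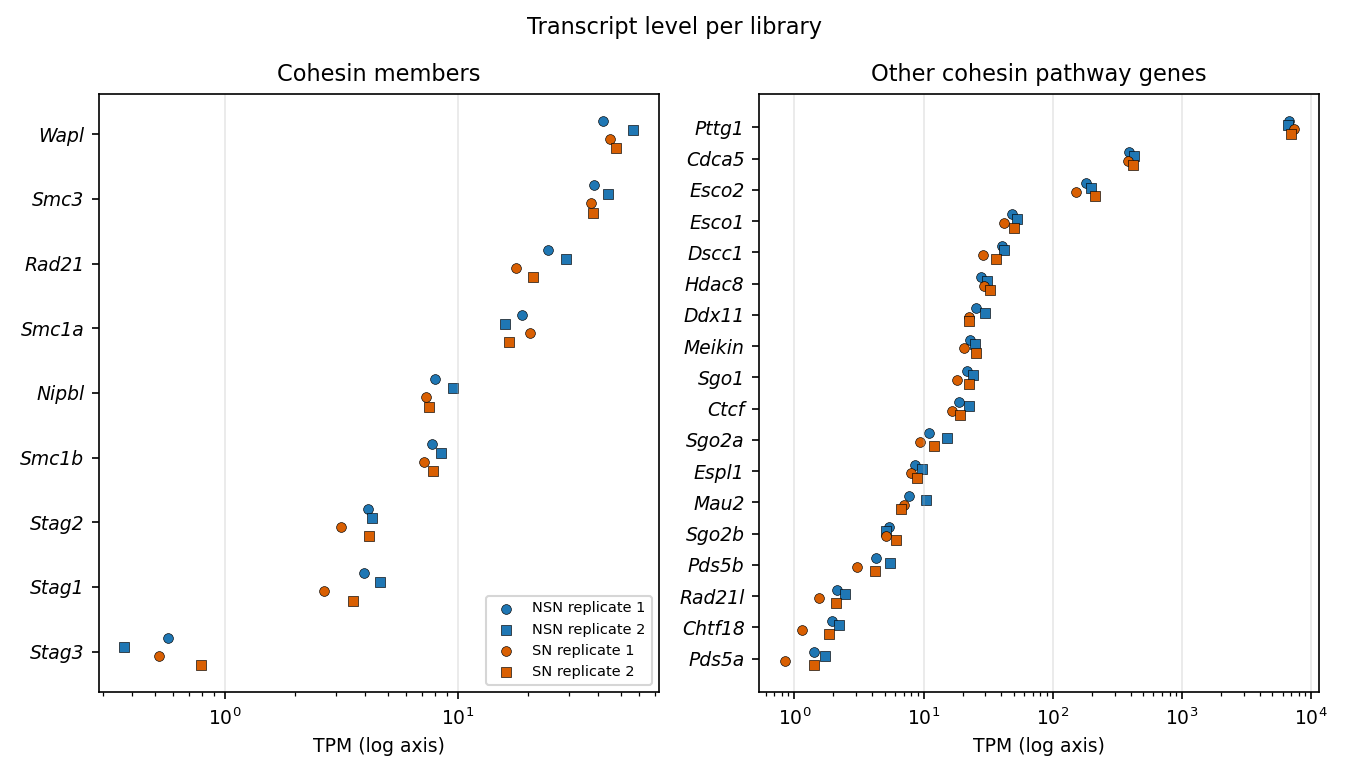
TPM on a log axis for the 9 cohesin members (left) and 18 other genes of the cohesin pathway (right), with a point per library (blue NSN, orange SN; circles replicate 1, squares replicate 2). Members lie between 0.37 TPM for Stag3 and 56.7 TPM for Wapl, and Pttg1 is the highest gene of the pathway, at up to 7302 TPM.

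The libraries held between 32307398 and 37023401 estimated counts, both SN libraries being deeper, and 3 counts corresponded to 0.081 to 0.0929 CPM (counts scaled by depth). The SN replicate 1 library had the lowest TPM of the 4 libraries for 65.3% of tested genes and for 6 of the 9 members, and NSN replicate 2 had the highest for 54.8% and for 7. The median log2 fold change of all genes moved from -0.01 to -0.154 with library size alone. It was -0.156 on log2(TPM + 1), over the 10580 genes with a mean of at least 1 TPM. TPM differences between classes are therefore read against that shift. The 8 oocyte markers checked, such as Zp3 and Gdf9, summed to between 19025 and 19947 TPM. The 10 granulosa and cumulus markers summed to between 38.4 and 52.5 TPM, of which Cyp19a1 gave 24.8 to 28 TPM, Nr5a2 6.3 to 8.87 TPM, Inha 3.48 to 12.3 TPM and Fshr 2 to 3.72 TPM. Amh, Foxl2 and Wt1 were at or below 0.3 TPM in each library. The 5 theca and stroma markers summed to 2.19 to 4.04 TPM. The 5 blood, immune and endothelial markers summed to 9.15 to 12.7 TPM, with Pecam1 at 5.57 to 7.88 TPM, Cd68 at 1.74 to 3.45 TPM and Ptprc at or below 0.01 TPM. Within that list, Lyz2 was at 0 and 0.05 TPM in NSN and 1.14 and 1.52 TPM in SN. Hbb-bs was at 0 and 0.1 TPM in NSN and 0.22 and 0.57 TPM in SN. Cd68 was at 2.82 and 1.74 TPM in NSN and 3.45 and 3.15 TPM in SN. Lyz2, Hbb-bs and Cd68 were each higher in both SN libraries, as were 4.98% of all tested genes, whereas Pecam1 and Ptprc overlapped. The list summed to 9.15 and 9.77 TPM in NSN and 10.4 and 12.7 TPM in SN. The part of these transcripts in the values of the cohesin genes was not tested.

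Rad21, the mitotic kleisin that separase cleaves at anaphase, was at 24.3 and 29.1 TPM in the NSN libraries and at 17.7 and 21.1 TPM in the SN libraries. Both SN libraries lay below both NSN libraries, in TPM and in CPM. The gene (gene ID 19357, chromosome 15 at 51962604 to 51993538, GRCm38) had a log2 fold change of -0.28 (SE 0.10), which did not pass over all genes (edgeR adjusted p = 0.662; unadjusted p = 0.0158). This was the smallest unadjusted p among the members, and 3.46% of all tested genes had an unadjusted p under 0.05 with lower values in SN. Without a library the log2 fold change stayed between -0.35 and -0.22. Between 87.5% and 96.2% of the level came from the predicted model XM_006520644.1, at 23.4 and 25.4 TPM in NSN and 16.2 and 18.8 TPM in SN. That model was at log2 -0.32 (SE 0.07; edgeR adjusted p = 0.696 over 29835 models), and DESeq2 called it (adjusted p = 0.000548) among 4.93% of models. The curated model NM_009009.4 took between 3.78% and 12.5% of the Rad21 level. Summing curated models alone moved the gene's log2 fold change to -0.07. Rad21l, the meiotic kleisin paralog found on synapsing chromosome axes, was at 2.15 and 2.45 TPM in NSN and 1.56 and 2.09 TPM in SN. It made up 8.12% and 7.78% of the summed Rad21 and Rad21l level in NSN and 8.12% and 9.01% in SN.

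Smc3 is the SMC subunit shared by mitotic and meiotic rings. It was the most abundant of the ring subunits with rows, at 38.5 and 44 TPM in NSN and 37.4 and 38.2 TPM in SN. It lies on chromosome 19 at 53600396 to 53645831 and had a single curated model, NM_007790.3. The TPM ranges did not overlap, whereas the TMM-scaled CPM did, at 130 and 135 in NSN and 146 and 130 in SN. The log2 fold change was 0.06 (SE 0.10, edgeR adjusted p = 0.906), and its sign turned without SN replicate 1, on log2 TPM and when counts were scaled by library size alone.

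Smc1a, the mitotic partner of Smc3 (chromosome X at 152016428 to 152061973), was at 18.8 and 16 TPM in NSN and at 20.4 and 16.6 TPM in SN. The classes overlapped, and within each class replicate 1 was above replicate 2. The curated model NM_019710.2 held 97.7% to 100% of the level. The log2 fold change was 0.27 (SE 0.18, edgeR adjusted p = 0.751). It was called without SN replicate 2 (log2 0.51, edgeR adjusted p = 0.0388), when the test called 289 genes in all, and was 0.008 without SN replicate 1. Smc1b, its meiosis-specific paralog, was at 7.73 and 8.42 TPM in NSN and 7.14 and 7.84 TPM in SN, with a log2 fold change of 0.07 (SE 0.12, edgeR adjusted p = 0.911) whose sign turned on log2 TPM and under scaling by library size alone. Per length, Smc1b made up 29.1% and 34.5% of the summed Smc1a and Smc1b level in NSN and 25.9% and 32.1% in SN. The shares overlapped between classes, and Smc1a was the more abundant transcript in each of the 4 libraries. The mean share was 31.8% ± 3.78 in NSN and 29% ± 4.34 in SN (SD, n = 2 each; exact two-sided permutation p = 0.667, where 0.333 is the smallest this design allows). Smc1b (chromosome 15 at 85064689 to 85131957) also had a single curated model, NM_080470.1.

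**Figure D2:**
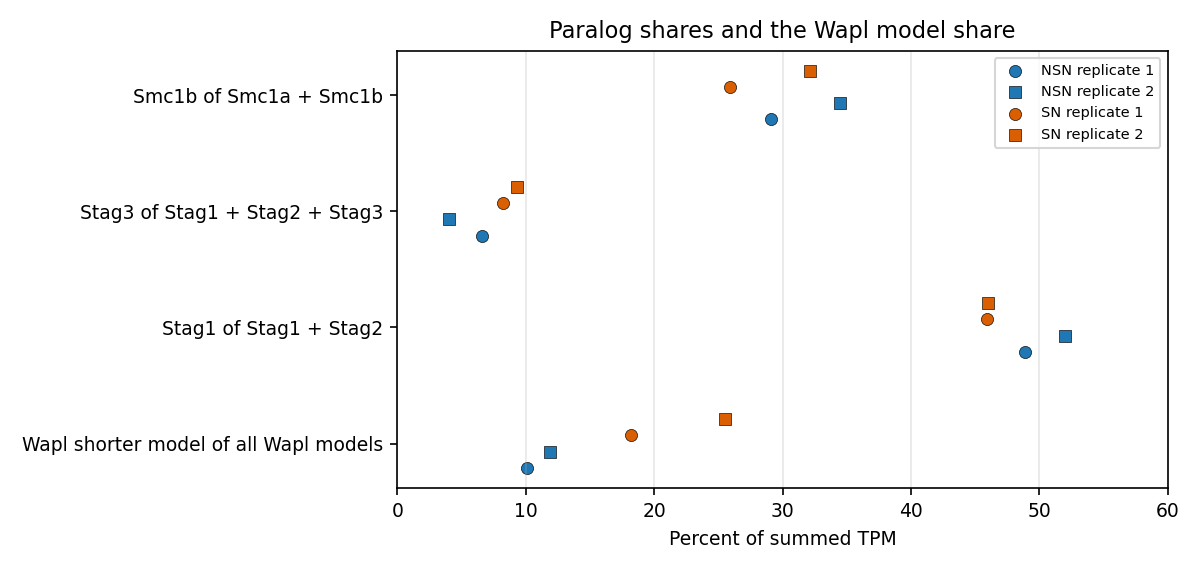
Share of each named transcript in the summed TPM of its set, in percent, with a point per library (blue NSN, orange SN; circles replicate 1, squares replicate 2). The Smc1b share overlaps between the classes, and the share of the shorter Wapl model is 10.1% and 11.9% in NSN and 18.2% and 25.5% in SN.

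The STAG subunits, which set where the ring binds and guard it on chromatin, were the least abundant members with rows. Stag1 was at 3.95 and 4.62 TPM in NSN and 2.67 and 3.54 TPM in SN. Both SN libraries were lower, in TPM and CPM, with a log2 fold change of -0.29 (SE 0.14; edgeR adjusted p = 0.665) on chromosome 9 at 100597709 to 100958544. Stag2 (chromosome X at 42149297 to 42277186) was at 4.12 and 4.27 TPM in NSN and 3.15 and 4.16 TPM in SN, which overlap, with a log2 fold change of -0.03 (SE 0.14; edgeR adjusted p = 0.974). The sign of the Stag2 value turned with cyclic loess scaling, without NSN replicate 1 and without SN replicate 1. Stag1 made up 48.9% and 52% of the summed Stag1 and Stag2 level in NSN and 45.9% and 46% in SN (exact two-sided permutation p = 0.333, the smallest possible). Both SN shares of Stag1 lay below both NSN shares, with a mean difference (SN minus NSN) of -4.53 percentage points.

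Stag3 is the meiosis-specific subunit (chromosome 5 at 138272514 to 138312397). It had the fewest reads of the members with rows, with 34 and 20 estimated counts in NSN and 36 and 57 in SN. On the TPM scale this was 0.57 and 0.37 against 0.52 and 0.79, and the TPM ranges overlapped. Its log2 fold change of 0.72 had the widest error of the members (SE 0.48, edgeR adjusted p = 0.738) and ranged from 0.36 without NSN replicate 2 to 1.19 without NSN replicate 1. Stag3 made up 6.6% and 4% of the summed STAG level in NSN and 8.2% and 9.31% in SN, a mean difference of 3.46 percentage points that was 1.75 with counts in place of TPM, 0.889 with curated models alone and 2.16 to 4.76 without a library. The predicted model XM_006504601.1 led in each library, with 51.9% to 90.4% of the Stag3 level, and the curated model NM_016964.2 took 12.3% in NSN replicate 1 and 22.8% in SN replicate 2 and was listed at 0 in the other libraries. The predicted model XM_017320971.2 took 37.8% in NSN replicate 2 and 25.3% in SN replicate 2 and was listed at 0 in both replicate 1 libraries, and XM_006504596.3 took 9.62% in SN replicate 1 alone. Stag2 was spread over 5 models that reached 5% of its level in a library, 3 of them curated. The curated models NM_001077712.2 and NM_021465.4 have no coding base that differs in the GENCODE annotation, and NM_021465.4 took 44.7% and 16.2% of Stag2 in NSN and 30.2% and 33.7% in SN. The SN values lay between the NSN values. NM_001077712.2 took 19.9% and 30.7% in NSN and 33% and 27.2% in SN, and the third curated model, NM_001290713.2, took 17% and 9.84% in NSN and 4.44% and 10.1% in SN. Both overlapped between the classes. The predicted Stag2 model XM_011250987.1 took 18.4% and 26.7% in NSN and 16.5% and 16.3% in SN, and XM_011250985.3 took 0% and 15.9% in NSN and 15.9% and 12.7% in SN. None of the Stag2 models was called by edgeR (adjusted p = 1.0 for each of the 5). The curated Stag1 model NM_001357264.1 was listed at 0 in both NSN libraries and held 34.2 and 53.6 estimated counts in SN. The counting divides reads among the Stag1 models, so a listed 0 sets no lower bound on the fold. Having no count in NSN, NM_001357264.1 entered the test through the SN libraries alone. It was not called by edgeR (adjusted p = 0.696) and was called by DESeq2 (adjusted p = 0.00101), both with that limit. The predicted Stag1 model XM_030244173.1 took 5.62% in SN replicate 1 and was listed at 0 elsewhere. The main Stag1 model NM_009282.4 was at 3.63 and 4.28 TPM in NSN and 2.18 and 3.04 TPM in SN (log2 -0.44, SE 0.17; edgeR adjusted p = 0.836). The shares of the Stag1 models did not pass the edgeR isoform test (adjusted p = 0.19 over 7000 genes). The unadjusted p of that test was 0.00323 for Stag1, with 7.06% of genes under 0.05. The tested Stag1 models included NM_001357264.1, which passed the filter through the SN libraries alone. The p-values of the isoform test for Stag1 therefore carry the same limit, and no weight is put on them.

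Wapl encodes the protein that opens the ring and releases it. It was the most abundant member with rows, at 41.8 and 56.7 TPM in NSN and 45.1 and 47.8 TPM in SN. The SN libraries fell between the NSN libraries, and the log2 fold change was 0.11 (SE 0.12, edgeR adjusted p = 0.843), with a sign that turned without NSN replicate 1, on log2 TPM and under scaling by library size alone. The gene lies on chromosome 14 at 34672379 to 34747983. Its single models were less alike. The shorter curated model NM_001301330.1 was at 4.21 and 6.74 TPM in NSN and 8.21 and 12.2 TPM in SN, with both SN libraries above both NSN libraries. The longer curated model NM_001004436.4 was at 37.5 and 49.8 TPM in NSN and 36.9 and 35.6 TPM in SN. Both SN libraries were below in TPM for this longer model. The share of all models with either pattern was not computed, and over summed genes both SN libraries were below for 37.0%. The longer model's log2 fold change was -0.09 (SE 0.15; edgeR adjusted p = 1.0), with a sign that turned without NSN replicate 2 (0.06) and without SN replicate 2 (0.03).

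The annotated coding sequences of the 2 Wapl models differ by 18 bases, or 6 codons, at the start of exon 4 of 19 (GRCm38 chr14:34694987-34695004, plus strand). They are shown because they are the coding difference between the models just described. Capitals mark the bases that the longer model keeps and the shorter one lacks, with 45 coding bases on either side, from the GENCODE M21 transcripts:
NM_001004436.4: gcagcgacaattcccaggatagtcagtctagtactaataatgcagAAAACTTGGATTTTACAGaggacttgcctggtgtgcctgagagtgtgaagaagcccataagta
NM_001301330.1: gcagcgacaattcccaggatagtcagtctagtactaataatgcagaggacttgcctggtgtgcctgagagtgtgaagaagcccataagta
The shorter model joins exon 3 to a splice acceptor that lies 18 bases further into exon 4. In GENCODE the matching transcripts also end differently, at 6351 and 4185 spliced bases. In the deposited values, however, the effective length of the shorter model (estimated count over TPM) was 0.9963 to 0.9972 of that of the longer model in the 4 libraries. A difference of 18 bases is 0.283% of 6351 bases. The models counted by the authors were therefore of nearly the same length, and the number of reads that crossed the differing bases is not given in the table.

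The shorter Wapl model made up 10.1% and 11.9% of the Wapl level in NSN and 18.2% and 25.5% in SN. The mean share was 11% ± 1.29 in NSN and 21.8% ± 5.17 in SN (SD, n = 2 each), a difference of 10.9 percentage points (7.2 to 14.5 without a library; exact two-sided permutation p = 0.333, the smallest possible). Tested as a model, it had a log2 fold change of 1.06 (SE 0.27; edgeR adjusted p = 0.696, unadjusted p = 0.0193), which stayed between 0.81 and 1.37 without a library. The edgeR test called 0.0% of 29835 models, and 6.47% had an unadjusted p under 0.05. DESeq2 called the model (adjusted p = 0.00153) among 1471 models, or 4.93%. The authors' deposited table gave it a log2 ratio of 1.07 with an unadjusted p of 1.42e-05, where 8.36% of the models in the authors' deposited table had a p under 0.05. Of the 34 models of the members, 5 were under 0.05 there, this one included. The others, by the authors' unadjusted p, were Stag1 NM_001357264.1 (8.20e-05) and NM_009282.4 (0.021), Rad21 XM_006520644.1 (0.000126) and Nipbl NM_027707.3 (0.00554). The edgeR isoform test, which called 0.429% of 7000 genes, did not call Wapl (adjusted p = 0.561; unadjusted p = 0.0322, with 7.06% of genes under 0.05). The Wapl models and their fold changes were singled out after their values were seen.

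**Figure D3:**
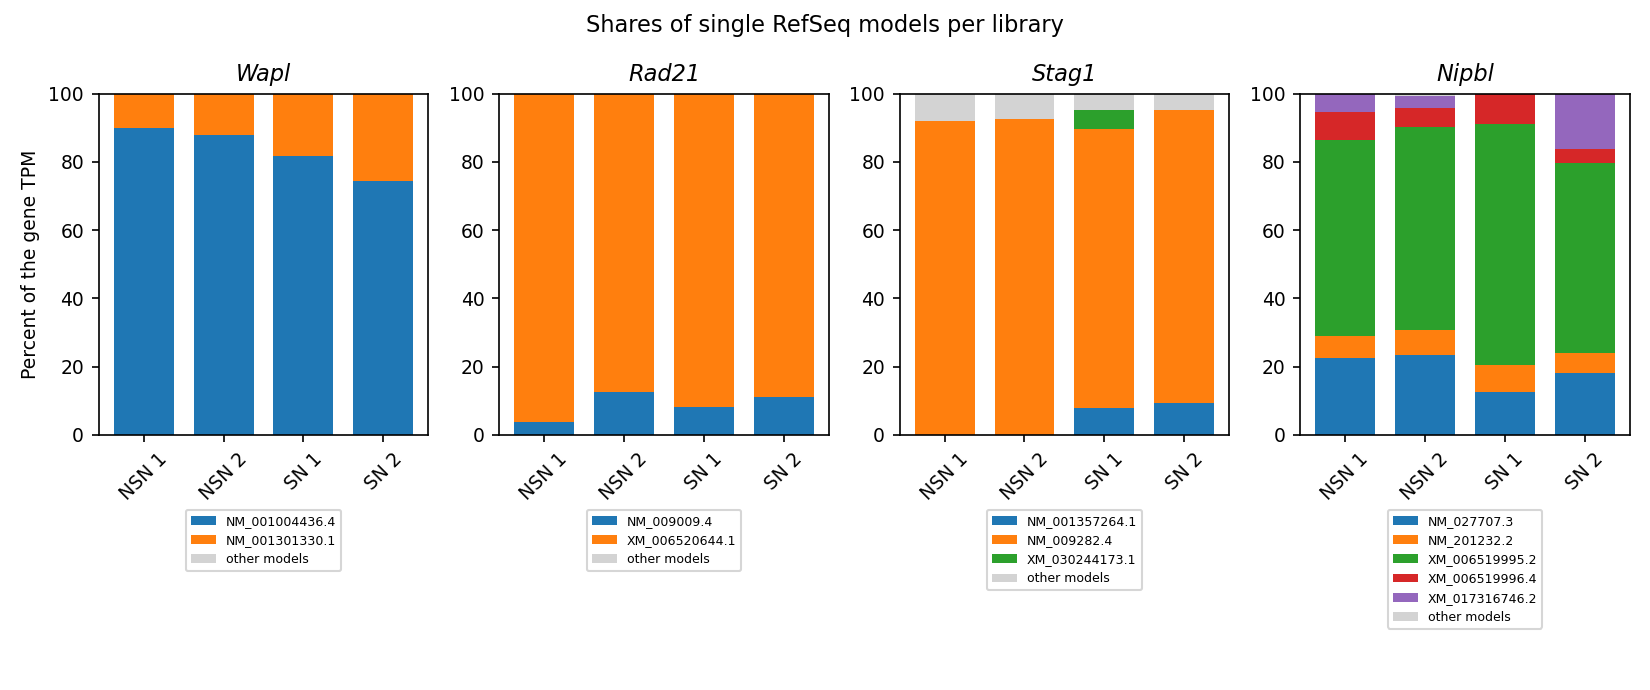
Share of each RefSeq model in the TPM of its gene, in percent, for Wapl, Rad21, Stag1 and Nipbl, with a stacked bar per library. Models that reach 5% in a library are coloured and the rest are grey; for Wapl the shorter model NM_001301330.1 takes 10.1% and 11.9% in NSN and 18.2% and 25.5% in SN.

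Nipbl, the cohesin loader, was at 7.96 and 9.51 TPM in NSN and 7.33 and 7.54 TPM in SN. Both SN libraries were lower in TPM, whereas TMM-scaled CPM overlapped, at 55.4 and 60.4 in NSN and 58.9 and 52.9 in SN. The gene (chromosome 15 at 8289824 to 8465315) had a log2 fold change of -0.05 (SE 0.10, edgeR adjusted p = 0.93), and its sign turned without NSN replicate 2 and without SN replicate 2. The predicted model XM_006519995.2 took between 55.8% and 70.5% of the Nipbl level. The curated model NM_027707.3 took 22.5% and 23.4% in NSN and 12.6% and 18.2% in SN, with a log2 fold change of -0.66 (SE 0.21; edgeR adjusted p = 0.722). The curated model NM_201232.2 took 5.7% to 7.91% and the predicted model XM_006519996.4 took 3.98% to 9%. XM_017316746.2 took 5.53% and 3.68% in NSN and 0% and 16.3% in SN, so that its SN libraries enclosed the NSN libraries. With curated models alone, the Nipbl log2 fold change was -0.48 (edgeR adjusted p = 0.771). Mau2, the partner of Nipbl in the loader, was at 7.73 and 10.4 TPM in NSN and 7.09 and 6.68 TPM in SN (log2 -0.14, SE 0.145; edgeR adjusted p = 0.836). The TPM ranges of Nipbl and Mau2 overlapped.

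**Figure D4:**
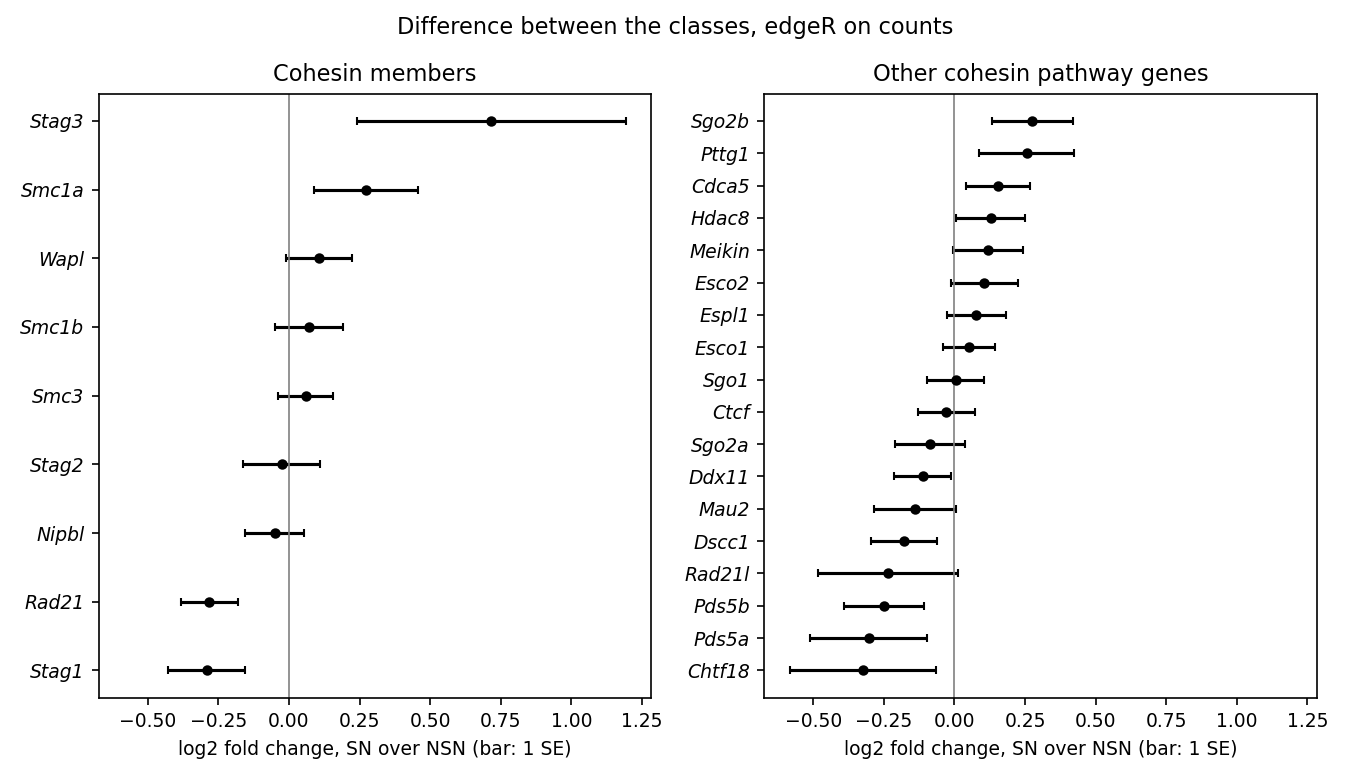
Log2 fold change of SN over NSN from edgeR on gene counts for the 9 cohesin members (left) and 18 other genes of the cohesin pathway (right), with bars of 1 SE. Members run from -0.29 for Stag1 to 0.72 for Stag3, and no gene shown passed the test.

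Other genes that establish, protect or cleave cohesion were measured beside the ring. Of 18 such genes, 18 were tested and 0 were called, with 9 higher and 9 lower in SN, log2 fold changes from -0.33 to 0.28 and a median of -0.01. An unadjusted p under 0.05 was reached by 0 of them, against 7.48% of all genes. Several were well above the ring subunits with rows in level. Pttg1, which encodes securin, the inhibitor of separase, was at 6747 and 6585 TPM in NSN and 7302 and 6904 TPM in SN (log2 0.26, SE 0.17; edgeR adjusted p = 0.737). Espl1, which encodes separase itself, was at 8.51 and 9.74 TPM in NSN and 7.97 and 8.96 TPM in SN. Cdca5, which encodes sororin, an antagonist of WAPL in mitotic cells, was at 386 and 422 TPM in NSN and 380 and 415 TPM in SN. It had a log2 fold change of 0.15 (SE 0.11; edgeR adjusted p = 0.758).

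Esco2, an acetyltransferase that locks the ring through SMC3, was at 179 and 199 TPM in NSN and 151 and 211 TPM in SN, and the SN libraries enclosed the NSN libraries. Its relative Esco1 was at 48.3 and 52.5 TPM in NSN and 41.5 and 50.2 TPM in SN. Hdac8, which removes that acetyl mark, was at 28 and 31.1 TPM in NSN and 29.4 and 32.6 TPM in SN. Pds5a and Pds5b, cofactors of both WAPL and the acetyltransferases, were low in each library, at 0.84 to 1.74 TPM and 3.07 to 5.46 TPM. Chtf18, which forms an alternative clamp loader with Dscc1, was at 1.95 and 2.23 TPM in NSN and 1.15 and 1.85 TPM in SN (log2 -0.33, SE 0.26; edgeR adjusted p = 0.781). The shugoshin genes, whose products shield centromeric cohesin from cleavage, were at 18 to 23.9 TPM for Sgo1, 9.37 to 15.1 TPM for Sgo2a and 5.08 to 6.1 TPM for Sgo2b, and Meikin, a meiotic kinetochore factor, was at 20.6 to 25.6 TPM.

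The smallest unadjusted p in that list belonged to Sgo2b, at log2 0.28 (SE 0.14; edgeR adjusted p = 0.706), followed by Pds5b at -0.25 (SE 0.14; edgeR adjusted p = 0.712) and Dscc1 at -0.18 (SE 0.12; edgeR adjusted p = 0.731). Sgo2a, the gene related to Sgo2b, was at log2 -0.09 (SE 0.12), and reads of related genes may be divided between them by the counting. By TMM-scaled CPM, both SN libraries were below both NSN libraries for 4 of the 18 genes and above them for 7, against 20.7% and 18.3% of all genes. In TPM the same counts were 7 below and 1 above, against 37.0% and 4.98%.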

How the data were processed

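The values come from 1 table, deposited by the authors, with a row per RefSeq mRNA model. The submitters' processing notes name HISAT2, Bowtie2, RSEM and the mm10 build, without versions or roles. Per the file headers it holds, for each library, estimated counts (65.4% of those of the members are not whole), TPM and FPKM, a normalized read count (a depth-scaled signal) and the authors' log2 ratio and unadjusted p-value per model. The authors' FPKM, normalized signal and class means were not used. RSEM divides ambiguous reads between models, an error that no test contains.

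Estimated counts were summed per gene ID and rounded. Genes were kept by filterByExpr and scaled by TMM, and the classes (2 libraries each) were compared with the quasi-likelihood test of edgeR 4.0.16 in R 4.3.3, with Benjamini-Hochberg adjustment over all genes and calls at 0.05. The SE was derived from the F statistic. Models were tested likewise, and isoform shares with diffSpliceDGE (Simes p per gene). Alternatives were DESeq2 1.42.0, limma 3.58.1 (voom, or trend on log2 TPM with a pseudocount of 1 or 0.1 and a minimum mean of 1 TPM or none), other scalings, no filter, curated models alone, a replicate block and each library left out. The edgeR code was also run on simulated counts with set changes. Their spread depended on mean level alone, and they held no RSEM assignment error. That setting is simpler than the data, so nothing is concluded from it about differences missed here. Counting floors of 3 counts cover counting error only.

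The 9 members with rows are each named. Of the pathway list, the 3 most abundant, the 3 with the smallest unadjusted p and the low genes were named by rule, and others for their role after their values were seen. Models reaching 5% of a gene's level in a library were named. Members and lists were chosen with earlier results of these data known. Shares that need Rec8 were not computed. Gene locations are those of RefSeq on GRCm38.p6, the assembly mm10 names, and 11 of the 34 models matched a GENCODE M21 transcript by the deposited identifier.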

Additional observations from a re-analysis of the deposited data

How the results depend on the processing

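The count of called members stayed at 0 under each alternative that gave an adjusted p, except without SN replicate 2, and ranged from 0 to 1 with a library left out; for the 18 pathway genes it was 0 throughout. DESeq2 gave an adjusted p to 672 genes and to none of the 9 members. How many of the 18 pathway genes were among those was not counted, so a pathway gene may be uncalled there for want of an adjusted p. The count over all genes was 0 with edgeR and rose to 47 with DESeq2, 15 with library size alone, 15 with no low-count filter, 54 on log2(TPM + 1), 64 on log2(TPM + 0.1), 1 with curated models alone, and 2 to 289 with a library left out; the cause was not tested. DESeq2 called 1471 models where edgeR called 0. Genes called for isoform share numbered 30, and 14 with no low-count filter and 0 to 14 with a library left out, with Wapl in none of them. A fit without a library leaves a class with 1 library, assumed to vary like the others.

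The members' median log2 of 0.059 moved to -0.09 with library size alone, -0.143 on log2(TPM + 1), -0.165 on log2(TPM + 0.1) and -0.12 with no TPM filter, beside a shift of all genes of -0.154, -0.156, -0.176 and -0.084. In that order of settings, Smc1b reversed to -0.074, -0.096, -0.107 and -0.096, Smc3 to -0.09, -0.12, -0.122 and -0.12, and Wapl to -0.043, -0.065, -0.066 and -0.065. The log2(TPM + 1) and log2(TPM + 0.1) settings with a TPM minimum covered 8 members, without Stag3, and 10580 genes. Without that minimum, 9 members and 17923 genes were covered, so these medians are not over the same set. Stag2 reversed to 0.013 with cyclic loess, a setting chosen after seeing the data. With a library left out, the log2 ranged from -0.022 to 0.146 for Smc3, -0.125 to 0.074 for Stag2, -0.039 to 0.27 for Wapl, -0.123 to 0.03 for Nipbl and -0.231 to 0.063 for the longer Wapl model. The Stag3 share was higher in SN by 3.46 points, by 1.75 points with counts in place of TPM, by 0.889 points with curated models alone and by 2.16 to 4.76 points with a library left out.

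The labels do not say whether same-numbered libraries are paired. Their deviations from the class means had a correlation of 0.029 across 13426 genes, a value that cannot settle this with 2 libraries per class. The replicate block called 44 genes, 0 of them members, and 2 genes for isoform share. A block with the replicate numbers crossed between the classes called 0 genes. Pairing was not tested further.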
